A study of Mus musculus with 4 samples.

Results

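Pericytes, the contractile cells that wrap capillaries and small venules, were followed in the lamina propria of the mouse gut, in small intestine and colon. They were picked from droplet single-cell RNA-seq as cells with at least 1 unique molecular identifier (UMI) for at least 3 of 7 pericyte markers (*Rgs5*, *Notch3*, *Cox4i2*, *Ndufa4l2*, *Higd1b*, *Vtn* and *Gja4*) and no UMI for *Pdgfra*, the fibroblast (FB) receptor, or *Pecam1*, which encodes CD31 of endothelial cells. Cells with fewer than 500 genes or 1000 UMIs, or with over 10% of their UMIs from mitochondrial genes, were left out. The rule found 259 pericytes among 32216 cells that passed this filter (0.804%), from 34983 barcodes. Since measured values chose them, levels of the 7 markers and every difference from the other 31957 cells are descriptions and carry no test.

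The mesenchymal stromal cells (MSC) came from untreated C57BL6/Nrj mice, 8 to 10 weeks old, in 2 independent experiments per intestine with 3 female mice each. After the muscularis externa had been removed, live cells negative for CD45, Ter119, CD31, BP3, EpCAM and L1CAM and positive for Itgb1 were sorted. Each intestine gave 2 libraries, numbered replicate 1 and replicate 2, which pooled mice and so hold no value for a single animal. The kit read either the 3′ or the 5′ end of transcripts, and the sources used here do not say which one went with which library. The study speaks of MSC subsets of both intestines from the same mice where it describes its flow cytometry sorting panels. It does not say so for these droplet libraries, and the labels do not tie libraries of one number to shared animals. P-values of fits without a block thus measure the spread between these libraries.

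Pericytes share the basement membrane of the endothelium and regulate capillary flow, permeability and vessel growth. Endothelial PDGF-BB recruits them through PDGFRβ, and Notch ligands on endothelium act through NOTCH3 to keep mural cells (pericytes and vascular smooth muscle) in their state. ATP-sensitive potassium channels, formed in these cells by the products of *Kcnj8* and *Abcc9*, couple their tone to metabolism.

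The libraries differed more by number than by intestine. Replicate 1 libraries held 1834 and 2431 cells passing the filter in small intestine and colon, and replicate 2 libraries 15263 and 12688. Median depth of pericytes was 4885, 1320, 7371 and 2209.5 UMIs per cell (here and below, sets of 4 values give replicate 1, then replicate 2, of small intestine, followed by those of colon), against 6983, 2788, 8848 and 3927 UMIs over all cells passing the filter. All pericytes of a library together held 363751, 61248, 755520 and 160403 UMIs. Levels below are the UMIs of a gene scaled to the total of these sums (CPM), so that 1 UMI is worth 16.3 CPM in small intestine replicate 2 and 1.32 CPM in colon replicate 1. A UMI tags one end of a transcript, and no level was divided by gene length, so that levels are compared between cells for a gene and not between genes. The replicate 1 libraries of both intestines shared 8 barcodes and the replicate 2 libraries 69, while other pairs shared 0 to 2. No barcode of a pericyte was shared.

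The 7 markers of the rule were high in pericytes of each library by construction. *Notch3*, the mural Notch receptor (chromosome 17, 32120820 to 32166852 of GRCm38), was at 679, 441, 545 and 405 CPM in pericytes and at 3.42, 1.06, 2.98 and 1.13 CPM in all other cells. *Vtn*, which encodes vitronectin, was at 575, 489.8, 547 and 349 CPM against 1.38, 0.563, 1.61 and 0.972 CPM. *Gja4*, the gap junction protein connexin 37, was at 690, 294, 471 and 468 CPM, and *Higd1b* at 57.7, 131, 83.4 and 87.3 CPM. These 4 genes were close to 0 in smooth muscle cells (SMC, defined here as cells outside the rule with at least 4 of the 6 muscle genes *Myh11*, *Actg2*, *Des*, *Cnn1*, *Synpo2* and *Lmod1*), with 0, 0, 1.48 and 1.61 CPM for *Notch3*. Muscle-gene cells with 3 or more rule markers counted as pericytes, which holds down rule genes in SMC by definition. In small intestine SMC held more RNA of 8 FB markers (16241 and 16462 CPM) than of the 6 muscle genes (8769 and 9001 CPM). In colon they held less (4999 and 6691 against 10229 and 9176 CPM).

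Not every marker set pericytes apart equally well in both intestines. *Rgs5*, a regulator that shortens signalling of G protein-coupled receptors, was at 3852, 2449, 4871 and 3803 CPM in pericytes. In the 16391 *Pdgfra*-positive cells it was at 622 and 599 CPM in small intestine but at 30.7 and 34.5 CPM in colon, alike in both libraries of each intestine. *Cox4i2*, an isoform of a cytochrome c oxidase subunit found in oxygen-sensing cells, went the other way, from 1.45 and 0.822 CPM in small intestinal to 42.6 and 43.3 CPM in colonic *Pdgfra*-positive cells, with 641, 539, 879 and 642 CPM in pericytes.

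Of 16 further pericyte markers that the rule did not use, 15 were measured (a mean of at least 10 CPM over pericytes and other cells), and 11 of them were at least 2-fold higher in pericytes than in the other cells of the same library in 4 of 4 libraries. Over all 8734 genes measured, 2.91% were (254 genes). *Pdgfrb*, the receptor for PDGF-BB, was at 753, 751, 605 and 505 CPM in pericytes and 58.9, 93.9, 70.6 and 78.2 CPM in other cells. *Cspg4* (NG2) was at 121, 147, 175 and 199 CPM, *Mcam* (CD146) at 341, 147, 187 and 156 CPM and *Esam*, an adhesion molecule, at 379, 376, 393 and 281 CPM, each above the other cells of its library. *Anpep*, *Cd248* and *P2ry14* did not stand out, with 68.7, 212, 105 and 81 CPM for *Cd248* in pericytes against 184, 192, 196 and 188 CPM in other cells. *Tbx18*, a marker of mural cells in other organs, had no UMI in any pericyte, and *Trpc6*, a cation channel, was at 33, 0, 71.5 and 6.23 CPM, with no UMI in small intestine replicate 2.

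**Figure D1:**
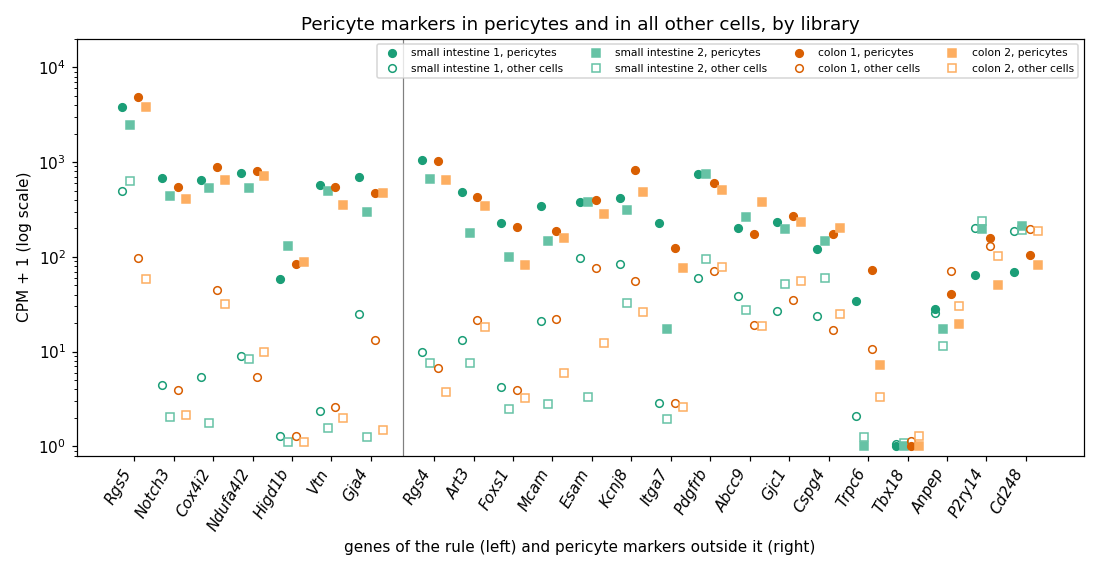
Levels of the 7 markers of the rule and of 16 pericyte markers outside it in pericytes (filled) and in all other cells passing the filter (open), as CPM + 1 on a log axis, 1 symbol per library (circles, replicate 1; squares, replicate 2). Filled symbols lie above open ones from *Rgs4* to *Cspg4*, and overlap for *Anpep*, *P2ry14* and *Cd248*.

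Some markers of other cell types were at 0 in pericytes. *Cdh5* and *Cldn5* (endothelium), *Kit* (interstitial cells of Cajal), *Ptprc* (immune cells) and *Epcam* (epithelium) had 0 UMIs in the pericytes of all 4 libraries. Of the 7 endothelial markers, 3, 5, 2 and 4 had no UMI in pericytes. Together they were at 66, 65.3, 149.6 and 137 CPM in pericytes, against 1181, 18.7, 961 and 30.5 CPM in other cells. In both replicate 2 libraries the sum was thus higher in pericytes. The 4 markers of interstitial cells of Cajal were higher in pericytes as a sum, at 291, 278, 222 and 218 CPM against 40.9, 39.4, 105.6 and 63.6 CPM in other cells, with 2 of the 4 at 0 in each library and *Ano1* making up most of it (275, 245, 188 and 199 CPM). FB markers moved with the libraries. The 8 of them summed to 1028, 14237, 2066 and 6216 CPM in pericytes, against 23923, 33678, 18283 and 20167 CPM in other cells. *Dcn*, the proteoglycan decorin, was at 308, 5486, 1145 and 3342 CPM in pericytes, highest in small intestine replicate 2, and 27 pericytes (2, 9, 9 and 7) carried more than 4 of the 8 FB markers. Results between intestines are therefore also given without these 27 cells, and the part of FB RNA in each value was not tested beyond that.

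The number of markers per cell ran from 3 (36 cells) over 4 (53), 5 (69) and 6 (74) to 7 (27). Just outside the threshold lay 207 cells with 2 markers. Cells with 3 markers held 3313, 2327, 3595 and 3414 CPM of the 16 outside markers, while cells with 2 markers held 664.6, 817, 970.6 and 1182 CPM, against 781, 724, 725 and 561 CPM in all other cells. FB markers summed to 40374, 40231, 4005 and 10583 CPM in cells with 2 markers. In cells with 3 markers, which count as pericytes, they summed to 403, 19587, 4286 and 1527 CPM. Another 45 cells with 3 or more markers were left out for a *Pdgfra* UMI (20) or a *Pecam1* UMI (25).

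A contractile group stood within the cells that the rule picked as pericytes. Of the 259, 75 (21, 0, 47 and 7) also carried at least 4 of the 6 muscle genes. In the 3 libraries that had them, these cells held *Acta2* (smooth muscle actin) at 18252, 14968 and 10503 CPM, while the remaining pericytes held 2209, 3092 and 1478 CPM. SMC outside the rule held 16981, 20657.5 and 13810 CPM in these libraries. *Pln*, which encodes the calcium pump regulator phospholamban and was no part of that gate, was at 601, 271 and 353 CPM in them and at 34.9, 40.5 and 0 CPM in the rest. It was also nearly absent from SMC outside the rule, at 3.84, 0, 4.93 and 1.61 CPM. *Notch3* was at 662, 545 and 289 CPM in the muscle group against 693, 545 and 433 CPM in the rest, whereas *Kcnj8* was lower in the muscle group (135, 531 and 161 against 648, 1209 and 557 CPM). *Pln*, which neither the rule nor the gate used, was thus higher in the group than in SMC and in the other pericytes of the same library. Whether these cells were single cells was not tested beyond a doublet score, which marked 7 of the 259 pericytes. Whether the 75 cells were pericytes or vascular smooth muscle was not tested, and they are counted as pericytes throughout.

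Next, genes outside the rule were ranked by their ratio in pericytes over the other cells of the same library (log2 of CPM + 10, mean ± SD over 4 libraries), among genes with at least 50 CPM in pericytes of each library. *Rgs4*, a second regulator of G protein signalling, led at 5.73 ± 0.29. It was at 1064, 669, 1023 and 648 CPM in pericytes and below 10 CPM in the other cells of each library, with 11.5, 0, 6.9 and 3.22 CPM in SMC. *Rgs4* lies 45.7 kb from *Rgs5* on chromosome 1, with no gene of the files between them. *Rgs7bp*, a partner of RGS proteins, was also among the 20 leading genes, at 272, 114, 229 and 199 CPM.

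The other leading genes fell into a few kinds. Signalling genes included *Apold1* (844, 1289.8, 716 and 1035 CPM), *Rasd1*, a Ras-like protein (1347, 245, 1369.9 and 499 CPM), *Rrad*, a small GTPase that restrains calcium channels (2164, 571, 1092 and 941 CPM), *Bcr* (1649, 1747, 1367 and 1627 CPM) and *Inpp4b*, a phosphoinositide phosphatase (329.9, 131, 239.6 and 175 CPM). *Bdnf*, a neurotrophin, was at 346, 114, 118 and 249 CPM in pericytes and at 2.69, 5.36, 1.99 and 3.97 CPM in the other cells. *Heyl*, a transcriptional target of Notch, and the transcription factors *Ebf1* and *Foxs1* were on the list, as were *Des* (desmin), the matrix genes *Tinagl1* and *Lamc3*, *Art3*, *Slc11a1* and *Map3k7cl*. *Ano1*, a calcium-activated chloride channel also known from interstitial cells of Cajal, was at 275, 245, 188 and 199 CPM in cells without *Kit*. *Olfr558*, an olfactory receptor gene, was at 63.2, 65.3, 273 and 175 CPM in pericytes and at 0.655, 0, 0.804 and 0.292 CPM in the other cells. *Apold1* had the widest spread of the 20 (SD 1.80). In other cells it was at 111, 3.06, 42.4 and 6.32 CPM, higher in both replicate 1 libraries, and the summed endothelial markers of other cells were also higher there (1181 and 961 CPM, against 18.7 and 30.5 CPM in replicate 2 libraries), whose part in the ratio was not tested.

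**Figure D2:**
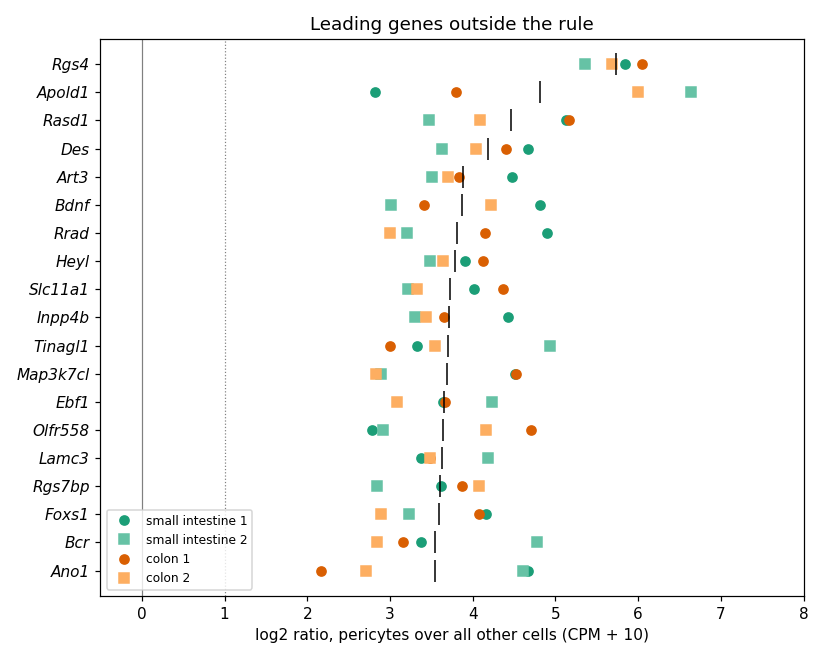
Genes among the 20 outside the rule with the highest mean ratio of pericytes over all other cells, as log2 of CPM + 10 per library (symbols) with the mean over 4 libraries (black tick). The dotted line marks 2-fold, and each symbol lies to the right of it. *Rgs4* lies highest and *Apold1* spreads most.

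Of 17 Notch pathway genes measured, 3 were at least 2-fold higher in pericytes in 4 of 4 libraries and 0 were 2-fold lower (over all genes, 1.48% were lower). *Jag1*, a Notch ligand, was at 74.2, 65.3, 94 and 81 CPM in pericytes against 7.71, 5.11, 8.51 and 8.95 CPM in other cells. *Heyl* was at 195, 147, 263 and 181 CPM against 3.71, 4.05, 5.63 and 5.29 CPM, a mean ratio of 13.8-fold. *Maml3*, a coactivator of Notch, was the third. *Nrarp*, a feedback target, was at 289, 0, 293 and 143 CPM and had no UMI in the smallest library, and *Hes1* did not reach 2-fold in each library (443, 702, 604 and 549 against 302, 466, 326 and 739.9 CPM). The ligand *Jag1* was thus found in the pericytes beside the receptor *Notch3*, a rule gene that is high by selection. Of 4 PDGF genes measured, *Pdgfrb* and *Pdgfa* were higher, the ligand *Pdgfa* at 278, 278, 237 and 274 CPM against 20.3, 25.4, 21.2 and 27.9 CPM, with no overlap between pericytes and other cells.

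Genes of vessel tone were often higher in pericytes, with 11 of 29 measured at least 2-fold higher in 4 of 4 libraries and 0 lower. *Kcnj8* (Kir6.1) was at 418, 310.2, 819 and 480 CPM against 82.9, 31.4, 54.9 and 25.2 CPM, and *Abcc9* (SUR2), which lies 16.2 kb away on chromosome 6, at 201, 261, 172 and 380.3 CPM against 37.5, 26.3, 18.1 and 17.8 CPM. Receptors for vasoconstrictors were among the 11. *Adra2a* (adrenergic) was at 132, 65.3, 147 and 106 CPM, *Avpr1a* (vasopressin) at 143, 196, 138 and 131 CPM and *Agtr1a* (angiotensin II) at 173, 261, 79.4 and 62.3 CPM, while *Agtr1a* reached 32.1, 38.8, 26.5 and 18.8 CPM in other cells and the other pair stayed below that. *Ptgir*, the receptor for the dilator prostacyclin, *Prkg1*, the cGMP-dependent kinase, and *Pde3a*, a phosphodiesterase, were there too, with *Pde3a* at 454, 310.2, 332 and 224 CPM. *Kcna5*, a potassium channel, and *Gjc1* (connexin 45) were also among the 11. *Ednrb* (endothelin) was at 349, 147, 192 and 555 CPM against 84.9, 71.6, 146 and 128 CPM and did not reach 2-fold in each library.

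Of 23 contractile genes measured, 8 were higher and 1 lower, counts that include the cells of the muscle group. Among the 8, *Des*, *Myh11*, *Lmod1* and *Synpo2* were also genes of the muscle gate. Without the muscle group *Acta2* was at 2209, 1094, 3092 and 1478 CPM in pericytes, against 1016, 468, 3351 and 1324 CPM in all other cells. *Des* was at 1685, 588, 1792 and 904 CPM in pericytes and 959, 1139.8, 465 and 408 CPM in SMC. *Myh11*, smooth muscle myosin, was at 1836, 229, 1510.2 and 1191 CPM in pericytes, below the 2804, 3323, 3236 and 3319 CPM of SMC in each library. *Acta2* (9405, 1094, 9924 and 3229 CPM), *Tagln* (7288, 637, 8607 and 3716 CPM), *Myl9* (3893, 408, 3852 and 1515 CPM) and *Tpm1* (3780.1, 1584, 3639.9 and 1995 CPM) were all lowest in small intestine replicate 2, the library with no pericyte of the muscle group. The 1 gene lower was *Hhip*, a Hedgehog inhibitor of gut muscle, at 0, 0, 35.7 and 18.7 CPM in pericytes and 671, 559, 1324 and 777 CPM in SMC. Of 9 regulators of G protein signalling measured beside *Rgs5*, 3 were higher (*Rgs4*, *Rgs7bp* and *Rgs16*).

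Among 26 basement membrane and matrix genes, 3 were higher and 1 lower. *Lamc3*, a laminin chain, was at 104, 179.6, 122 and 112 CPM against 1.02, 0.428, 1.75 and 0.914 CPM in other cells, and the integrins *Itga1* and *Itga7*, which bind collagen and laminin, were the other 2. *Col4a1* (896, 1649, 786 and 1471 CPM against 530.2, 808, 557 and 681) and *Sparcl1* (2471, 816, 1629 and 1066 CPM against 599, 438, 654 and 474) were higher without reaching 2-fold in each library, and *Sparc* was not apart (5042, 8066, 3976 and 5997 CPM against 4371, 9368, 4173 and 5878). *Col15a1* was lower. Of 31 angiogenic genes, *S1pr3* (a sphingosine 1-phosphate receptor, 327, 261, 177 and 168 CPM), *Adamts1* (an anti-angiogenic protease, 2216, 1927, 1394 and 1708 CPM) and *Angpt2* (77, 32.7, 134 and 37.4 CPM) were higher, while *Cxcl12* and *Thbs2* were lower.

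Respiratory chain subunits with tissue-restricted isoforms were read pair by pair. *Ndufa4l2* and *Cox4i2*, which are rule genes and high by selection, were at 764, 539, 814 and 717 and 641, 539, 879 and 642 CPM. *Ndufa4*, the ubiquitous paralog of the first, was lower in pericytes than in other cells in 4 of 4 libraries, at 176, 147, 135 and 106 CPM against 474, 336, 402 and 273 CPM, a log2 ratio of -1.33 ± 0.15. *Cox4i1*, the common isoform of the second, differed by less than 2-fold in each library (753, 947, 674 and 679.5 against 707, 778, 716 and 751 CPM). The same held for *Higd1a*, the paralog of *Higd1b*, at 140.2, 65.3, 95.3 and 93.5 CPM against 111, 72.7, 110.5 and 99.1 CPM. *Epas1*, which encodes the oxygen-regulated transcription factor HIF-2α, was the 1 gene of 13 measured in this group that was at least 2-fold higher in each library (549.8, 425, 425 and 449 CPM against 110.5, 64.2, 95.8 and 71.4). *Ldha* was at 454, 327, 561 and 524 CPM and not 2-fold apart.

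Of 28 transcription factors of mural cells and gut mesenchyme measured, 6 were higher and 0 lower. *Ebf1* was at 1311, 1159, 1088 and 1097 CPM against 96.3, 51.9, 76.4 and 120.3 CPM and at 15.3, 20.9, 4.93 and 17.3 CPM in SMC, so that pericytes and SMC did not overlap. *Ebf2*, *Foxs1*, *Mef2c*, *Nr2f2* and *Prrx1* were the other 5, with *Nr2f2* (COUP-TFII, a factor of veins) at 236, 310.2, 287 and 330.4 CPM and *Prrx1* at 44, 32.7, 62.2 and 68.6 CPM. *Id3*, an inhibitor of bHLH factors, was at 5028, 3723, 4139 and 3703 CPM against 1339.8, 1646, 2524 and 2483 CPM, and *Klf2*, a factor induced by flow in endothelium, at 1361, 1045, 2735 and 1633 CPM against 772, 960.4, 1288 and 1421 CPM, higher in each library without reaching 2-fold in all 4.

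Immune and metabolic genes were mixed. *Ccl11*, the eosinophil chemokine eotaxin, was at 3758, 2923, 2213 and 1783 CPM against 896, 829, 663 and 309 CPM, and *Il34*, a ligand of the CSF1 receptor, at 217, 81.6, 323 and 125 CPM. *Cxcl13*, *Cxcl12* and *Ackr4* were lower, and *Ackr4*, known from CD81+ FB, had 0 UMIs in pericytes of all 4 libraries against 76.3, 59.3, 20.5 and 30 CPM in other cells. *Ifi27*, *Iigp1* and *Ifit3* were the 3 of 28 interferon response and MHC genes that were higher. Of 16 retinoid and cholesterol genes, 0 were higher and 3 lower (*Rbp4*, *Aldh1a1* and *Apoe*). Epithelial support genes had the lowest median ratio of the lists. Of 24 measured, 8 were lower, among them *Wnt5a* (8.25, 0, 11.9 and 12.5 CPM against 28.6, 40.5, 117 and 112), *Bmp5* (22, 16.3, 70.2 and 18.7 CPM against 83.6, 73.9, 300 and 212), *Bmp3* and *Rspo3*, and the median log2 ratio was -1.68 against -0.03 over all genes measured. *Chrdl1*, a BMP antagonist, was the 1 gene of the list that was higher, at 118, 49, 100.6 and 31.2 CPM. Of 22 immediate early genes 0 were higher and 0 lower.

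To compare the intestines, the share of pericytes was read first. It was 3.71% (95% Clopper-Pearson interval 2.89 to 4.68) and 0.210% (0.143 to 0.296) of cells passing the filter in small intestine and 4.15% (3.40 to 5.03) and 0.457% (0.347 to 0.591) in colon, intervals that cover counting error only. The mean difference, colon minus small intestine, was 0.347 percentage points (exact two-sided permutation test over libraries, p = 0.667, where 0.33 is the smallest p that 2 against 2 libraries allow). Libraries with the same number differed by 0.447 and 0.247 points, colon higher in both, and the SD between libraries of one intestine was 2.47 points in small intestine and 2.61 points in colon. Leaving out 1 library moved the difference between -1.50 points (without colon replicate 1) and 2.20 points (without colon replicate 2), and it was -1.40 points without small intestine replicate 2. With each cell thinned to 1000 UMIs the shares were 2.45%, 0.157%, 3.13% and 0.276%. After thinning 180 cells met the rule, a set not limited to the pericytes of the full counts.

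**Figure D3:**
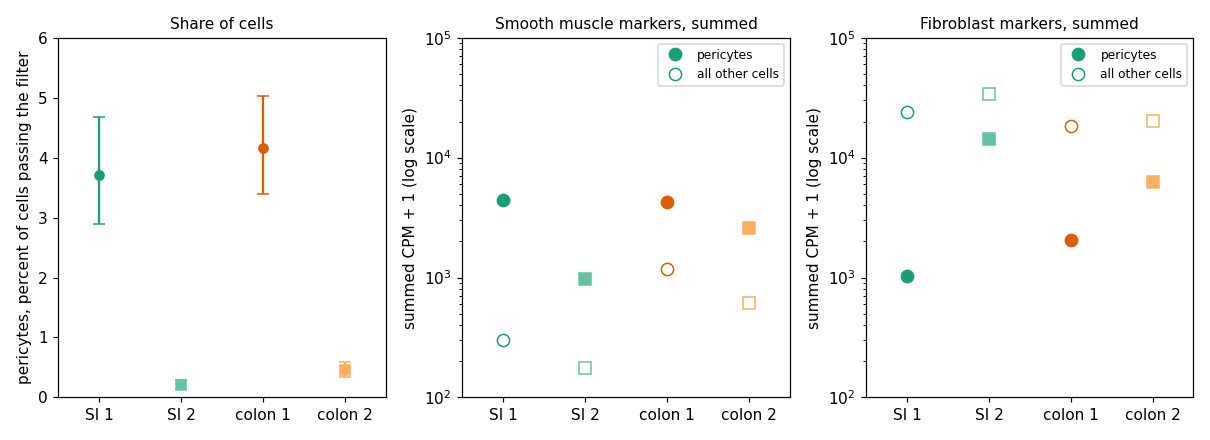
Left, share of pericytes among cells passing the filter in each library, with the 95% Clopper-Pearson interval. Middle and right, summed CPM + 1 (log axis) of 6 smooth muscle and 8 FB markers in pericytes (filled) and all other cells (open). The replicate 1 libraries have the higher shares in both intestines, and FB markers in pericytes are highest in small intestine replicate 2 (14237 CPM).

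Pericytes of colon and small intestine were then compared gene by gene on summed counts with edgeR's quasi-likelihood test. Of 4327 genes tested, 0 were called (0%), where a call needed a change beyond 1.5 on the log2 scale and a p below 0.05 after Benjamini-Hochberg adjustment, and 102 (2.36%) had an unadjusted p under 0.05. DESeq2 called 0 genes as well, with 51 at an unadjusted p under 0.05. The replicate number coincided with the Cell Ranger version in the file headers, with cell number and with depth, so the fit was repeated with the number as a block. P-values under the block rest on how far the same-numbered pairs disagree, with variance borrowed across genes. With 4 libraries few degrees of freedom remain for this. That fit called 17 genes (0.393%), with colon above small intestine in 4 and below it in 13. All 17 were also called under the block without the 27 pericytes with over 4 FB markers (57 calls in all). Of these 57 calls, 27 were higher and 30 lower in colon. With neither a block nor a low-count filter 11 genes were called, 7 higher and 4 lower in colon. Without the 75 pericytes of the muscle group the blocked fit called 8 genes, 7 of them among the 17 (*B2m*, *H2-K1*, *H2-D1*, *H2-Q7*, *Gpx3*, *Nfkbiz* and *Col5a3*). Calls in the next paragraphs are from the blocked fit, with log2 fold changes ± SE of colon over small intestine. In the filtered fit without the block none of the 17 was called and each had an adjusted p of 1 (edgeR), and the labels do not say that a same-numbered pair shares mice.

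Under the block, genes of MHC class I, which presents peptides to CD8 T cells, were lower in colonic pericytes. *B2m*, the light chain of class I molecules, held 1333 and 1747 CPM in small intestinal and 398 and 430.2 CPM in colonic pericytes, and *H2-K1*, a heavy chain, went from 1441 and 1861 to 359 and 337 CPM, so that intestines did not overlap for either gene. The blocked fit gave -1.87 ± 0.29 for *B2m* (adjusted p = 0.00699) and -2.22 ± 0.29 for *H2-K1* (adjusted p = 0.00412). *H2-D1* fell too (-1.56 ± 0.28, adjusted p = 0.0173), though it was not called under the block in pericytes with at least 4 markers (nor was *C4b*), as did *H2-Q7* (adjusted p = 0.00591), with 30, 11, 2 and 1 UMIs, a pooled ratio of 29.5-fold (95% counting interval 9.4 to 149). H2 genes are near-identical copies, and how reads were shared among them is uncertain. Of 24 interferon response and MHC genes tested, 19 were lower in colon in both same-numbered pairs (1087 of all 4327 genes were) and 6 of 24 had an unadjusted p under 0.05, with a median log2 fold change of -0.75 against 0.02 over all genes. The same direction was seen in the other cells, where *B2m* went from 2207 and 1816 to 559.6 and 509.6 CPM. The difference between both changes was 0.18 ± 0.41 (log2 ± SE, adjusted p = 1) for *B2m* and 0.06 ± 0.41 for *H2-K1* (adjusted p = 1).

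Chemokine and stress genes were also among the calls. *Ccl2*, which recruits monocytes, was at 1575 and 1486 CPM in small intestinal and 180 and 368 CPM in colonic pericytes (-2.61 ± 0.34, adjusted p = 0.00412). *Ccl2* in other cells went from 556 and 523 to 116 and 266 CPM, and the difference between both changes was not called (-0.80 ± 0.43, log2 ± SE). Of 15 chemokine, cytokine and adhesion genes tested, 11 were lower in colon in both pairs (1087 of all 4327 genes were), with a median of -1.06. In other cells 9 of the 15 were lower in both pairs. In pericytes 5 had an unadjusted p under 0.05 (*Ccl2*, *Vcam1*, *Cxcl2*, *Cxcl10* and *Ccl7*), as had 2.36% of all genes. *Cxcl10*, an interferon-induced chemokine, was at 1419 and 1731 against 782 and 598 CPM and was not called. *Mt2*, a metallothionein, fell from 918 and 376 to 67.5 and 106 CPM (-3.02 ± 0.46, adjusted p = 0.00915), *Gpx3*, a secreted glutathione peroxidase, from 825 and 882 to 238 and 137 CPM (adjusted p = 0.00699) and *Nfkbiz*, a regulator of NF-κB, from 1284 and 686 to 351 and 162 CPM (adjusted p = 0.00699). *Cmip*, *Ly6e*, *Marcksl1*, *C4b* and *Ccl19* were the other calls higher in small intestine. Of these *C4b* (49.5, 604, 11.9 and 99.7 CPM) was highest in small intestine replicate 2, where FB markers were highest, and *Ccl19* (ENSMUSG00000071005, a gene with near-identical copies) rested on small intestine replicate 1 (197, 1, 50 and 0 UMIs).

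Fewer calls of the blocked fit were higher in colonic pericytes, a split that not every setting kept. *Enpep*, the angiotensin-processing aminopeptidase A, rose from 27.5 and 16.3 CPM in small intestinal to 154 and 162 CPM in colonic pericytes (adjusted p = 0.0237). *Col5a3*, a fibrillar collagen chain, went from 19.2 and 49 to 114 and 380.3 CPM (2.69 ± 0.47, adjusted p = 0.0145), highest in colon replicate 2. The homeobox gene *Pitx1*, which shares 736 bases with *Gm28760* on the same strand, had 0, 0, 47 and 27 UMIs, at least 11.4-fold higher in colon against a floor of 3 UMIs over both small intestinal libraries, and it was lower in pericytes than in the other cells of each library (0, 0, 62.2 and 168 against 8.36, 16.9, 256 and 272 CPM). *Cxcl14* had 2, 0, 83 and 13 UMIs, a pooled ratio of 22.3-fold (95% counting interval 6 to 187). *Olfr558* (63.2 and 65.3 against 273 and 175 CPM, unadjusted p = 0.00826 in the fit without the block, edgeR) and *Rcan1*, a calcineurin regulator (55 and 81.6 against 271 and 156 CPM), did not overlap between intestines. Neither was called with or without the block, and both were called under the block in pericytes with at least 4 markers and in those with at most 4 FB markers.

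**Figure D4:**
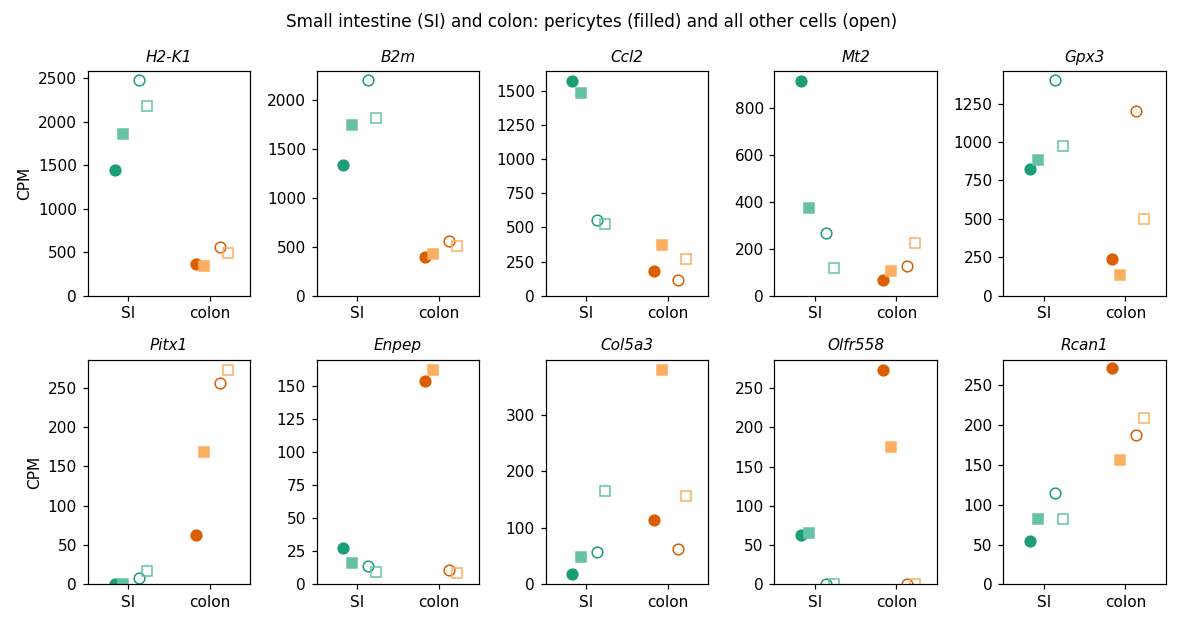
CPM of 10 genes in pericytes (filled) and all other cells (open) of small intestine and colon, 1 symbol per library (circles, replicate 1; squares, replicate 2). These are the 5 genes per direction with the smallest p-values in the fit without a block, among genes that passed a filter. The filter asked for the same direction in both pairs and at least 20 UMIs in both libraries of the higher intestine. *H2-K1* and *B2m* are lower in colon in both kinds of cells, and *Enpep* differs in pericytes while other cells stay at or below 13.5 CPM.

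Outside markers of pericytes were not called between intestines. *Pdgfrb* differed by -0.44 ± 0.40 (log2 ± SE, colon over small intestine), *Rgs4* by -0.06 ± 0.46, *Heyl* by 0.36 ± 0.47, *Kcnj8* by 0.82 ± 0.47 and *Ebf1* by -0.18 ± 0.38, all with an adjusted p of 1 (edgeR, no block), which does not show that the levels were equal. Of 13 outside markers tested, 0 had an unadjusted p under 0.05, and the blocked fit called 0. In the vessel tone list 1 of 21 had one, *Agtr1a*, at 173 and 261 CPM in small intestine and 79.4 and 62.3 CPM in colon, which was called under the block when the 27 cells with FB markers were left out. Of 21 immediate early genes 3 had one and 18 were higher in colon, as were 2231 of all 4327 genes tested (*Fos* 3857, 5290, 13695 and 8472 CPM, *Jun* 2427, 4865, 7263 and 9127 CPM). In both same-numbered pairs 12 of the 21 were higher in colon in pericytes (1238 of all 4327 genes) and 15 in other cells (1858 of 4327). Such genes respond to tissue digestion, and their part in the other differences was not tested.

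Hox genes, whose expression follows position along the gut, were partly split by intestine. *Hoxa9*, *Hoxa10* and *Hoxa11*, neighbours on chromosome 6, had 0 UMIs in pericytes of both small intestinal libraries. In colon they had 41 and 7, 63 and 6 and 43 and 7 UMIs, at least 7.42-fold, 10.7-fold and 7.73-fold higher over the 3-UMI floor. They were also close to 0 in other small intestinal cells, and *Hoxa10* was at 71.7 and 53.5 CPM in other colonic cells. None of the 3 was called under the block, and *Hoxa10* was not tested for low counts. All 3 were called under it when the 27 cells with FB markers were left out.

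For 2 of 30 Hox genes tested, *Hoxb4* and *Hoxb2*, the change between intestines differed between pericytes and the other cells. *Hoxb4* (chromosome 11, 96318267 to 96321638) was at 68.8 and 71.3 CPM in other small intestinal cells and at 12.6 and 11.5 CPM in other colonic cells, while pericytes held 35.7 and 81.6 CPM in small intestine and 83.4 and 74.8 CPM in colon. *Hoxb2* (chromosome 11, 96350525 to 96354012) went from 31.3 and 28.2 to 7.57 and 7.37 CPM in other cells and from 52.2 and 16.3 to 109 and 87.3 CPM in pericytes. Pericytes of colon were above those of small intestine in both same-numbered pairs for *Hoxb2*, but in the replicate 1 pair alone for *Hoxb4*. In colon, pericytes of both libraries lay above the other cells for both genes. The test of the difference between the 2 kinds of cells (a term for cell class and tissue, each library being its own block) gave 3.44 ± 0.53 for *Hoxb4* (adjusted p = 2.62e-07) and 3.29 ± 0.54 for *Hoxb2* (adjusted p = 1.6e-06). Both calls were kept in 9 of 10 alternatives and lost without colon replicate 1. Pericyte counts were small, with 13, 5, 63 and 12 UMIs for *Hoxb4* and 19, 1, 82 and 14 for *Hoxb2*. SMC of colon were at 4.93 and 3.62 CPM for *Hoxb4*, so that the level was not shared by muscle cells outside the rule.

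**Figure D5:**
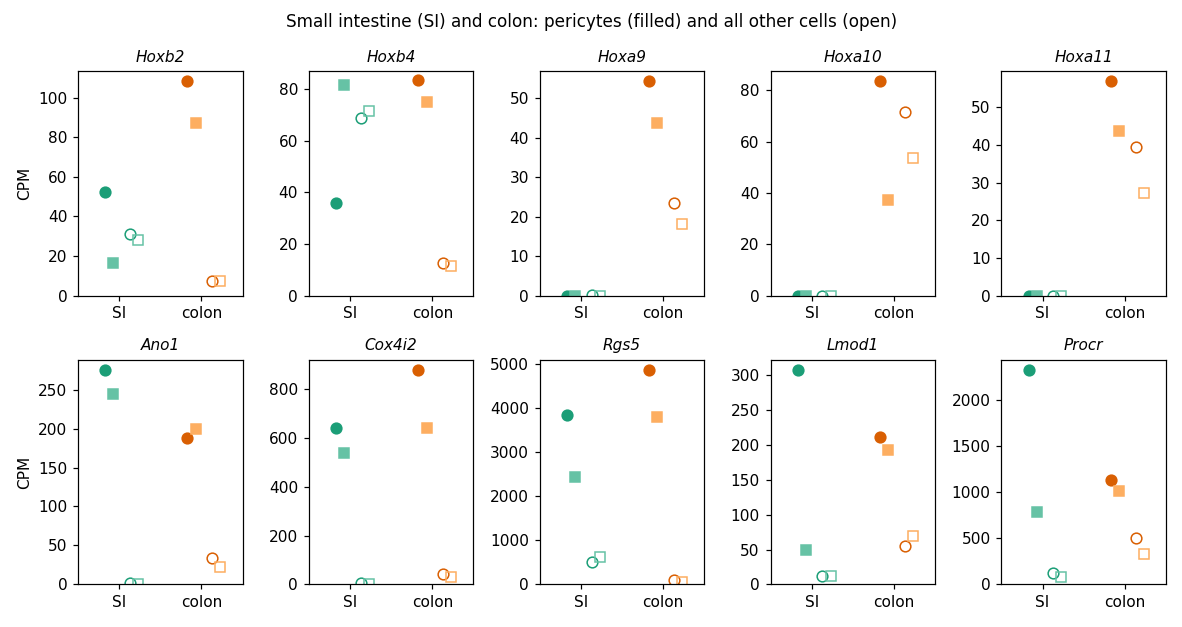
CPM of 10 genes in pericytes (filled) and all other cells (open) of small intestine and colon, 1 symbol per library (circles, replicate 1; squares, replicate 2). *Hoxb2* and *Hoxb4* stay up in colonic pericytes while other colonic cells fall to 12.6 CPM or less. *Hoxa9* to *Hoxa11* are at or near 0 in small intestine, and *Ano1*, *Cox4i2* and *Rgs5* change mainly in the other cells.

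Over all genes, this test called 54 of 13045 genes (0.414%), 24 with the higher colon effect in pericytes and 30 with the lower. The other cells are a mixture whose makeup also differs between intestines, so that each value needs both levels beside it. In 14 of the 54 pericytes moved over 2-fold the same way in both pairs, and in 25 the other cells did. *Enpep* belonged to the first kind, since other cells stayed at 13.5, 9.28, 11 and 8.89 CPM (3.03 ± 0.59, adjusted p = 0.000207), as did *Mt2*, which was at 267, 118, 126 and 226 CPM in other cells (-2.58 ± 0.47, adjusted p = 3.09e-05). *Ano1* belonged to the second, with 1.24 and 0.428 CPM in other small intestinal and 34 and 22 CPM in other colonic cells around a steady level in pericytes (-5.45 ± 0.50, adjusted p = 2.79e-23). *Procr*, the endothelial protein C receptor, was at 2331, 784, 1134 and 1016 CPM in pericytes and 125, 84.5, 502 and 335 CPM in other cells (-2.22 ± 0.43, adjusted p = 0.00017), a call lost without the 27 cells with FB markers, without small intestine replicate 1 and without each of the colon libraries. *P2rx1*, an ATP-gated channel of vascular muscle, was at 93.5, 16.3, 59.6 and 74.8 CPM and fell in other cells from 9.31 and 16.9 to 1.04 and 1.81 CPM (adjusted p = 0.000319). The muscle genes *Lmod1*, *Actg2* and *Cnn1* were also called, with *Lmod1* at 308, 49, 212 and 193 CPM in pericytes and 12.4, 11.6, 55 and 69.5 CPM in other cells, and these 3 calls and that of *P2rx1* were lost without the 75 pericytes of the muscle group. Of 15 of the called genes, chosen after their values were seen, 14 lost the call without colon replicate 1 (*Ano1* was kept), when 17 genes were called in all, 10 lost it without colon replicate 2, 9 without small intestine replicate 1 and 7 without the muscle group. *Col5a3*, *Mt2* and *Enpep* were lost without each of the colon libraries, and *Enpep* also without small intestine replicate 1.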

How the data were processed

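Reads had been aligned by the authors to mm10, and UMIs counted, in Cell Ranger (3.0.2 for replicate 1 and 3.1.0 for replicate 2 libraries per the file headers; the labels name 3.0.2). What was deposited is a table of raw counts of UMIs for 28692 genes in every barcode, not normalized. Library depth was 14341443 to 52269372 UMIs. Members and gene lists were chosen with earlier results of these data known.

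Counts of pericytes and of other cells were summed per library. Colon and small intestine were compared with edgeR 4.0.16 (limma 3.58.1, R 4.3.3; filterByExpr, TMM, robust quasi-likelihood fit without a block), with p-values adjusted over all genes tested, rule genes left out of the counts. DESeq2 1.42.0, RLE factors, no filter, other member sets, leaving out libraries and the replicate block were alternatives. Scrublet (scanpy 1.11.5, Python 3.11.15) scored doublets, with a fixed score of 0.2 set after the automatic threshold had marked 1 cell in small intestine replicate 2. Steps were tested on simulated counts.

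Named genes were the 10 per direction with the largest change among calls, or, with fewer than 5 calls, the 5 with the smallest p (moving one way in both pairs, with 20 UMIs or more in both libraries of the intestine with the higher level), the 20 with the highest ratio over other cells, calls within lists and the 4 highest genes of each list. Other genes (calls of the blocked fit and the class by tissue test, and members of lists) were named after their values were seen. Some genes that met these rules are not reported here. Positions are of GENCODE vM21 (GRCm38).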

Additional observations from a re-analysis of the deposited data

Results flagged for a closer look

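The change between intestines differed between pericytes and all other cells for 54 genes (class by tissue term of edgeR, adjusted over 13045 genes). Differences below are log2, colon over small intestine, pericytes minus other cells. They were higher in pericytes for *Hoxb4* (3.44), *Hoxb2* (3.29), *Cxcl14* (3.26), *Enpep* (3.03), *P2rx1* (2.98) and *Col5a3* (2.80). They were lower for *Ano1* (-5.45), *Rgs2* (-3.98), *Ccl7* (-2.86), *Mt2* (-2.58), *Procr* (-2.22), *Cmip* (-2.17), *Lmod1* (-2.17), *Actg2* (-2.08) and *Cnn1* (-1.95). These 15 were selected from the 54 after the values had been seen. *Ano1* was called in 10 of 10 alternatives and *Cxcl14* in 2 of 10. *Rgs2*, a regulator of G protein signalling, was at 55, 32.7, 6.62 and 37.4 CPM in pericytes and 20.4, 64.9, 92.5 and 252 CPM in other cells. The makeup of the other cells, which differs between intestines, was not part of the test.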

How the results depend on the processing

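The share difference kept its direction and its exact permutation p of 0.667 in 6 alternatives (0.219 to 0.413 points), and ranged from -1.50 to 2.20 points when 1 library was left out, with -1.40 and -1.50 points reversed. For genes differing between intestines, the count of 0 stayed at 0 with at least 4 markers, without the muscle group, without doublets, with at most 4 FB markers, with RLE factors and with DESeq2. It was 11 with no low-count filter, 17 with the replicate block, and 0 to 11 when 1 library was left out (11 without small intestine replicate 2, 2 without colon replicate 1, 8 without colon replicate 2). With the replicate block it was 57 with at least 4 markers, 8 without the muscle group (7 of them among the 17), 19 without doublets and 57 with at most 4 FB markers. The 10 named genes kept their direction in the 11 (*Pitx1*) or 12 alternatives that changed 1 choice. *Olfr558* and *Rcan1* were called in none of these 12, but were called with the replicate block joined to at least 4 markers or to at most 4 FB markers. The 54 calls of the class by tissue test became 20 without the muscle group and 17 to 129 when 1 library was left out (129 without small intestine replicate 2, 43 without small intestine replicate 1, 17 without colon replicate 1, 21 without colon replicate 2), of which 9 to 49 were among the 54. The 254 genes higher in pericytes ranged from 240 to 378. The settings with at most 4 FB markers, the replicate block joined to other member sets, and the share with 1 library left out were chosen after seeing the data. The causes of these changes were not tested. The 61248 UMIs of small intestine replicate 2 set the limit of detection, at 16.3 CPM for 1 UMI. Leaving a library out leaves 1 sample in an arm, which was assumed to vary like the others.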
